A study of Homo sapiens with 8 samples.

Results

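The genes described here are 10 inflammatory cytokines and chemokines, IL8, IL6, IL1A, IL1B, CXCL1, CXCL2, CXCL3, CCL2, CCL20 and LIF. They were taken by name from the deposited table, which lists 23391 genes, and each of the 10 names was found. Messenger RNA of DU145 cells, an epithelial line from a human prostate cancer, was sequenced in 8 libraries, which form 4 groups of 2 biological replicates. DU145-pc3.1 is a pool of cells stably transfected with the empty pcDNA3.1-zeo(+) vector, and DU145-Esrrb is a pool carrying the Esrrb expression vector, both after Zeocine selection and both at passages 5 to 6. DU145-pc3.1+DY131 and DU145-Esrrb+DY131 are the same pools given 3 µM DY131, a synthetic ligand of the estrogen related receptors Esrrb and Esrrg. All groups were grown in charcoal-stripped serum, in which the ligand was also given. The length of this treatment, and whether the groups without DY131 received its solvent, are not given in the sources used here, so an effect of DY131 and one of its solvent cannot be told apart. Every group carries a transfected and selected pool, so no group shows the parental line. The methods say that 2 biological replicates of the transfected cells were pooled. Whether the 2 libraries of a group come from separate transfections is not clear from this. If they do not, an effect of Esrrb and a difference between the 2 selected pools cannot be told apart.

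On GRCh38 the 4 ELR chemokines lie on chromosome 4, IL8 at chr4:73740506-73743716 and CXCL1 at chr4:73869404-73871242 on the plus strand, CXCL3 at chr4:74036589-74038689 and CXCL2 at chr4:74097035-74099293 on the minus strand. IL6 lies at chr7:22727147-22732000 on the plus strand and LIF at chr22:30243533-30246739 on the minus strand (GENCODE 29). The counts were made on hg18, whose positions were not used here.

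The members fall into 4 families by role. IL8 (named CXCL8 in current annotation), CXCL1, CXCL2 and CXCL3 are ELR chemokines, small secreted proteins that recruit neutrophils through the receptors CXCR1 and CXCR2. CCL2 and CCL20 are CC chemokines that act on CCR2 and CCR6, on monocytes and on lymphocytes and dendritic cells respectively. IL1A and IL1B are the interleukin-1 cytokines, which start inflammatory signalling through IL1R1 and IL1RAP. IL6 and LIF both signal through the shared receptor chain gp130, the product of IL6ST, to the transcription factor STAT3. Transcription of most of these genes is driven by NF-kappaB together with AP-1 and C/EBP factors, and their mRNAs are short-lived because of destabilizing elements bound by proteins such as ZFP36. Many carcinoma lines, DU145 among them, secrete some of these factors without any immune cell present.

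The regulatory sequence that the ELR chemokines and IL6 share is shown first, since it is a feature that 5 of the members have in common. RefSeq promoters (GRCh38.p14) were matched for 8 members, all but CCL2 and LIF, and the 250 bases before each start were searched on both strands. The kappaB letters GGANTTTCC were found in 5 of the 8, namely IL8, IL6, CXCL1, CXCL2 and CXCL3, against 1.45% of 35116 promoters. Other forms of the kappaB site were not searched, so a member without these letters may hold another form. CXCL1, CXCL2 and CXCL3 are near copies and do not count as separate finds. The count is a description and no test of enrichment. The windows of 30 bases around the site are given below 5′ to 3′ on the gene's strand, with the kappaB letters in capitals. They lie at chr4:73740468-73740497 (plus strand) for IL8, chr7:22727118-22727147 (plus) for IL6, chr4:73869305-73869334 (plus) for CXCL1, chr4:74099253-74099282 (minus) for CXCL2 and chr4:74038748-74038777 (minus) for CXCL3.
IL8: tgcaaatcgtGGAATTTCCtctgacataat
IL6: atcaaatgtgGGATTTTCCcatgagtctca
CXCL1: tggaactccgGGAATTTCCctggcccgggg
CXCL2: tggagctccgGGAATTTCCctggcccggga
CXCL3: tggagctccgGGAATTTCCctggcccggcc

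The site of the ELR chemokines has the same 9 letters in all 4 genes, and the flanks of CXCL1, CXCL2 and CXCL3 are nearly alike. IL6, IL8 and CXCL2 carry a further searched motif upstream of it, in CXCL2 the C/EBP letters from 188 to 181 bases before the start. For IL6 and IL8 the 97 bases from 160 to 64 before each start are shown because they hold both motifs. They lie at chr7:22727040-22727136 (plus) for IL6 and at chr4:73740409-73740505 (plus) for IL8. The capitals mark, in order, C/EBP (TTGCNNAA) and kappaB in IL6, and AP-1 (TGANTCA) and kappaB in IL8.
IL6: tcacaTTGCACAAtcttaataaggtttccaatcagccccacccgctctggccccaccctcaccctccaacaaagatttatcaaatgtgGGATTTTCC
IL8: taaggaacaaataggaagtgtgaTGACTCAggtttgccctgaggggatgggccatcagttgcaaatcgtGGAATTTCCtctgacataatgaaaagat

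The C/EBP letters occurred in 9.05% of all promoters and the AP-1 letters in 6.57%. C/EBP letters were also found in IL1B and CXCL2, and AP-1 letters in IL1A. The letters AAGGTCA of the estrogen related receptor response element (ERRE), present in 3.44% of promoters, were found in CCL20 alone among the 8, on the minus strand from 172 to 166 bases before the start. GENCODE and RefSeq place some starts apart, and the CXCL2 window lies inside the GENCODE transcript. A match of letters is a description of the sequence, and binding was not measured. Other forms of each motif were not searched, so a missing match is not a missing site.

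Library totals ran from 7858743 to 11551690 counts, lowest in the 2 DU145-Esrrb+DY131 libraries. The table gives those 2 columns the same heading, so they carry no replicate number and are called a and b here. ESRRB had 99 to 143 counts in the 4 libraries of the Esrrb pool and 0 to 3 in the 4 libraries of the empty vector pool, as the labels say. Replicates differed by more than counting error in every group, most between the 2 DU145-pc3.1+DY131 libraries, where the chi-square per degree of freedom was 7.10 against 1.29 to 2.60 in the other groups. The epithelial markers EPCAM, CDH1, KRT7, KRT8, KRT18 and KRT19 were present in all groups and summed, with KRT5 (at most 1 count), to 3796 to 4447 cpm, a gene's counts scaled to the size of its library. Within this sum single markers differed in either direction. Mean CDH1 was 161 cpm in DU145-pc3.1 and 67.7 cpm in DU145-Esrrb+DY131, and mean KRT8 was 1092 and 1621 cpm. Of 8 leukocyte markers, PTPRC had at most 1 count and CD3E had 0, and the sum of 60.0 to 93.1 cpm was nearly all CD68. It was highest, at 90.1 to 93.1 cpm, in DU145-Esrrb+DY131, and the 6 fibroblast and endothelial markers summed to 3.05 to 6.87 cpm. The marker sums are scaled to raw library totals. The cpm of a single gene in a library or group uses totals adjusted by TMM, the scaling of edgeR, so the 2 are not on the same scale. In bulk RNA, fewer cells with a transcript and less of it per cell cannot be told apart.

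Of the 10 members, 6 passed the filter of at least 1 cpm in at least 2 libraries, and 4 (IL1A, IL1B, CCL2 and CCL20) did not. Group means in cpm ran from 80.2 to 99.6 for LIF, 40.1 to 50.3 for IL8, 13.1 to 21.4 for CXCL2, 2.96 to 11.1 for IL6, 5.92 to 9.04 for CXCL1 and 1.5 to 2.33 for CXCL3. On the scale that allows genes to be compared, cpm per kilobase of transcript, the group mean of IL8 was 23.5 to 29.5, that of CXCL2 10.7 to 17.6, that of IL6 2.51 to 9.43, that of CXCL1 5.40 to 8.24 and that of CXCL3 1.39 to 2.17. LIF reached 135 to 168, but on the listed transcript of 592 bases, a short form of the gene, so its level per length is too high wherever reads came from a longer form. On this scale IL8 lay above CXCL2, and CXCL2 above IL6 and CXCL1, in all 8 libraries. IL6 and CXCL1 were the neighbours that changed places, IL6 being above CXCL1 in the 4 libraries without DY131 and below it in the 4 with DY131. CXCL3 was lowest except in library b of DU145-Esrrb+DY131, where IL6 stood at 1.82 and CXCL3 at 1.89 cpm per kilobase.

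**Figure D1:**
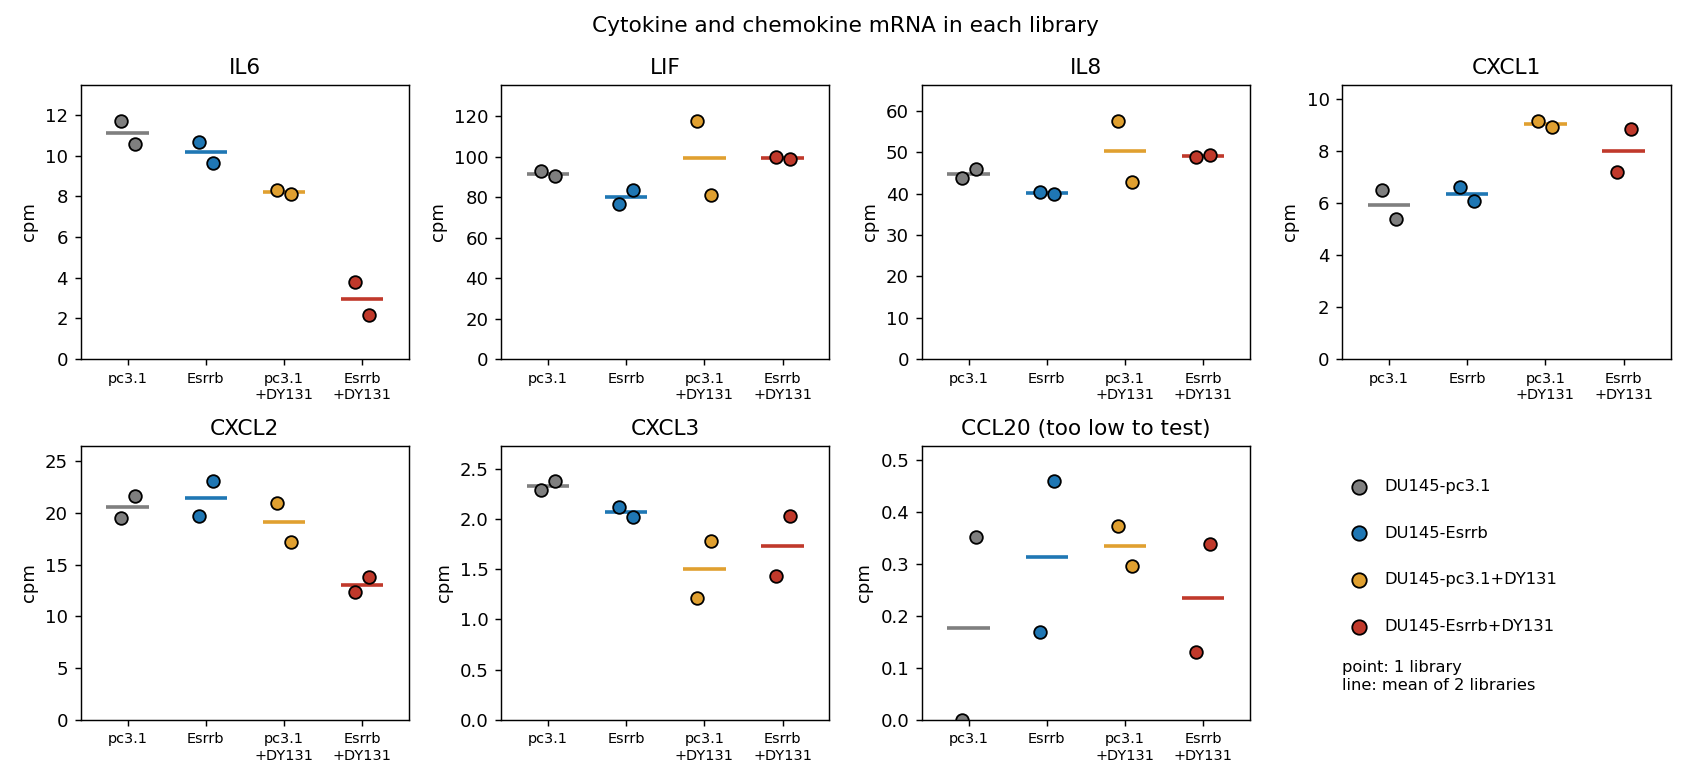
Level of 7 members in cpm (vertical axis, from 0) in each library (points) of the 4 groups, with the mean of 2 libraries as a line. IL6 lies lowest in DU145-Esrrb+DY131, at 2.15 and 3.78 cpm, and CXCL2 is lowest there too, while IL8 and LIF have 1 library of DU145-pc3.1+DY131 above all others.

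No tested member was called for Esrrb without DY131. In this comparison of DU145-Esrrb with DU145-pc3.1, 80 of 13856 genes were called (0.577%). To be called, a gene had to pass edgeR's quasi-likelihood test at 0.05 after adjustment and differ by 1 or more on the log2 scale. IL6, the gp130 cytokine of the acute phase response, stood at 11.7 and 10.6 cpm in DU145-pc3.1 and at 10.7 and 9.65 cpm in DU145-Esrrb, and the groups overlapped. Its log2 fold change was -0.13 ± 0.16 (SE, edgeR adjusted p = 0.756). LIF, which also signals through gp130, had 93.0 and 90.5 cpm without Esrrb and 76.8 and 83.5 cpm with it, a log2 difference of -0.19 ± 0.12 (edgeR adjusted p = 0.44). IL8 had 43.7 and 45.8 cpm without Esrrb and 40.3 and 40.0 cpm with it, a log2 difference of -0.16 ± 0.11 (edgeR adjusted p = 0.509). The libraries of LIF, IL8 and CXCL3 did not overlap between these groups, as was so of 51.6% of all tested genes. The log2 differences of CXCL1 and CXCL2 were 0.10 and 0.05 and that of CXCL3 -0.17, with edgeR adjusted p from 0.837 to 0.889. The median over the 6 members was -0.14, against 0.00 over all tested genes.

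DY131 in the empty vector pool called none of the 6 members either, where 580 of 13856 genes were called (4.19%, 142 higher and 438 lower). CXCL1 came closest to a call among those higher. It measured 6.48 and 5.37 cpm in DU145-pc3.1 and 9.15 and 8.92 cpm in DU145-pc3.1+DY131, 1.53-fold higher. The groups did not overlap, as was so of 65.55% of all tested genes. The log2 fold change of CXCL1, 0.61 ± 0.17, passed the adjusted p (edgeR, 0.012), as did 37.4% of all genes, but not the fold change threshold. DESeq2 gave an adjusted p of 0.0965 for it, and over all alternatives the adjusted p ran from 0.00404 to 0.119.

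IL6 was lower in both libraries with DY131, at 8.31 and 8.13 cpm, than in either DU145-pc3.1 library. The log2 fold change of -0.44 ± 0.17 had an edgeR adjusted p of 0.055, which ranged from 0.0318 to 0.255 over the alternatives. CXCL3, the scarcest tested member, had 24 and 27 counts without DY131 and 13 and 18 with it, a log2 difference of -0.64 ± 0.33 (edgeR adjusted p = 0.136). CXCL2 had 19.5 and 21.6 cpm without and 21.0 and 17.2 cpm with DY131, and these overlapped.

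IL8 and LIF depended on a single library in this comparison. In replicate 1 of DU145-pc3.1+DY131 IL8 stood at 57.6 cpm and LIF at 118 cpm, and in replicate 2 at 42.9 and 81.2 cpm. The first value of each is the highest of all 8 libraries and the second lies below both DU145-pc3.1 libraries. The log2 differences were 0.17 ± 0.11 for IL8 (edgeR adjusted p = 0.227) and 0.12 ± 0.12 for LIF (0.444). Corrected for GC content and transcript length they were 0.25 for IL8 (edgeR adjusted p = 0.104) and 0.35 for LIF (0.0123), so LIF then passed the adjusted p but not the fold change threshold. The LIF correction used the length and GC content of the listed short form, which may not be the source of its reads. Without replicate 1 the log2 differences were -0.05 for IL8 and -0.17 for LIF, and without replicate 2 they were 0.36 for each.

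In the Esrrb pool IL6 was lower with DY131. This was the single call among the 6 members, where 1666 of 13856 genes were called (12.0%, 413 higher and 1253 lower). IL6 fell from 10.7 and 9.65 cpm to 3.78 and 2.15 cpm, that is from 126 and 105 counts to 29 and 19. The drop was 3.49-fold, a log2 fold change of -1.80 ± 0.22 (edgeR adjusted p = 5.28e-06), and 2.89% of tested genes had a value as low or lower. Every library without DY131 was above every library with it, and 82.3% of all tested genes were likewise without overlap here. The change was called under each of 20 alternatives, with log2 values from -2.24 without library a to -1.43 without library b.

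CXCL2 was lower as well, by less. It measured 19.8 and 23.1 cpm in DU145-Esrrb and 12.4 and 13.8 cpm in DU145-Esrrb+DY131, 1.63-fold lower and without overlap. Its log2 fold change of -0.70 ± 0.14 passed the adjusted p (edgeR, 4.57e-04), which stayed between 9.63e-07 and 0.0112 over the alternatives, but not the fold change threshold. CXCL1 had 6.62 and 6.06 cpm without and 7.17 and 8.81 cpm with DY131, a log2 difference of 0.34 ± 0.18 (edgeR adjusted p = 0.123). CXCL3 overlapped between the groups, with 25 and 22 counts against 11 and 18 (log2 -0.24 ± 0.34, edgeR adjusted p = 0.558).

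IL8 and LIF were slightly higher with DY131 in the Esrrb pool. IL8 had 40.3 and 40.0 cpm without and 48.9 and 49.3 cpm with it, a ratio of 1.22 (log2 0.29 ± 0.11, edgeR adjusted p = 0.0344). LIF had 76.8 and 83.5 cpm without and 99.9 and 99.2 cpm with it, a ratio of 1.24 (log2 0.31 ± 0.12, edgeR adjusted p = 0.034). Both passed the adjusted p alone, as did 58.7% of all genes, and neither reached the fold change threshold. Both have few transcript positions near an exon junction, 8.9% for IL8 and 9.0% for LIF against a median of 14.3% over tested genes, and the genes within 2 points of IL8 had a median log2 difference of 0.15 in this comparison. With a correction for the junction share the differences were 0.15 for IL8 (edgeR adjusted p = 0.271) and 0.18 for LIF (0.231). Corrected for GC content and length they were larger, 0.48 for IL8 (edgeR adjusted p = 0.00342) and 0.70 for LIF (2.90e-05). With both corrections together, a setting chosen after seeing the data, they were 0.35 (0.0273) and 0.57 (2.66e-04). For LIF these corrections used the length, GC content and junction share of the listed short form, and may differ if its reads came from a longer form. No setting brought either gene to the fold change threshold. DESeq2 gave adjusted p values of 0.0764 and 0.169. Over all alternatives the adjusted p ran from 0.00128 to 0.271 for IL8 and from 2.90e-05 to 0.231 for LIF. IL6 kept a log2 fold change of -1.75 with the junction correction and CXCL2 one of -0.75.

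**Figure D2:**
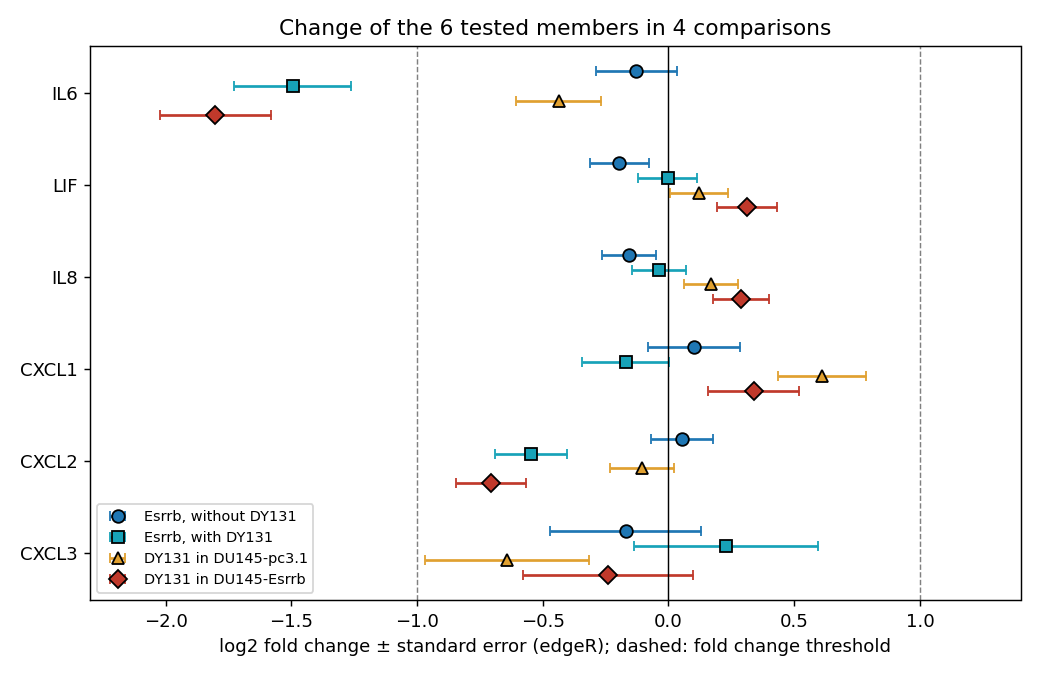
The log2 fold change with its standard error (horizontal axis) of the 6 tested members in 4 comparisons, with dashed lines at the fold change threshold. IL6 lies beyond the threshold at -1.80 for DY131 in DU145-Esrrb and at -1.49 for Esrrb with DY131, and the other members lie between the dashed lines.

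Compared under DY131, the Esrrb pool had less IL6 than the empty vector pool. IL6 stood at 8.31 and 8.13 cpm in DU145-pc3.1+DY131 and at 3.78 and 2.15 cpm in DU145-Esrrb+DY131, 2.82-fold lower (log2 -1.49 ± 0.23, edgeR adjusted p = 7.85e-05). It was again the single member called, where 1137 of 13856 genes were (8.21%). CXCL2 had 21.0 and 17.2 cpm against 12.4 and 13.8 cpm, 1.46-fold lower (log2 -0.55 ± 0.14, edgeR adjusted p = 0.0048, or 0.0529 without library a). IL8 and LIF differed by -0.04 and 0.00 on the log2 scale, CXCL1 by -0.17 and CXCL3 by 0.23, with edgeR adjusted p from 0.441 to 0.987. For LIF this difference was 0.28 without replicate 1 of DU145-pc3.1+DY131 (edgeR adjusted p = 0.00245) and -0.25 without replicate 2 (0.00383).

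The difference between the responses to DY131 of the 2 pools was tested directly, as an interaction. For IL6 the response in DU145-Esrrb was lower by 1.37 ± 0.29 on the log2 scale than that in DU145-pc3.1 (edgeR adjusted p = 0.00201), and it was called, as were 870 of 13856 genes (6.28%). Over the alternatives this difference ran from -1.81 to -1.0, with adjusted p from 1.40e-05 to 0.0288. For CXCL2 the difference was -0.60 ± 0.19 (edgeR adjusted p = 0.0233), under the fold change threshold, and its adjusted p ran from 0.00177 to 0.102 over the alternatives, with 0.0975 in DESeq2. The responses of IL8, CXCL1, CXCL3 and LIF differed by 0.12 ± 0.15, -0.27 ± 0.25, 0.40 ± 0.47 and 0.19 ± 0.17, with edgeR adjusted p from 0.4 to 0.582.

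Against the empty vector pool without DY131, the Esrrb pool with DY131 had 3.81-fold less IL6 (log2 -1.93 ± 0.22, edgeR adjusted p = 2.36e-06), the single member called where 1778 of 13856 genes were (12.8%). CXCL2 differed by -0.65 ± 0.14 (edgeR adjusted p = 9.21e-04), and CXCL1 by 0.44 (0.0514). The libraries of all 6 tested members were without overlap here, as were those of 81.5% of tested genes. This comparison shares its libraries with those above and adds no separate evidence.

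Counts on CXCL1, CXCL2 and CXCL3 carry an uncertainty, since the genes are near copies and the treatment of reads that fit several genes is not stated. Their coding sequences of 321 bases were 93.5% identical for CXCL1 and CXCL2, 90.7% for CXCL1 and CXCL3 and 94.4% for CXCL2 and CXCL3. Of all windows of 50 bases, the read length, 5.73% of the CXCL1 transcript, 9.24% of CXCL2 and 5.26% of CXCL3 also occurred in a transcript of another of the 3 genes. Coding bases 145 to 234 (GENCODE 29, GRCh38) are printed as the stretch where the 3 genes are most alike, with the bases that differ from CXCL2 in capitals, 3 in CXCL3 and 2 in CXCL1.
CXCL2: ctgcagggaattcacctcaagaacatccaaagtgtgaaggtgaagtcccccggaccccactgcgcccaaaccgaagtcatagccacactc
CXCL3: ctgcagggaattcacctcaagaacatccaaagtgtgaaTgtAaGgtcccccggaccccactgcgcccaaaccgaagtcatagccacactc
CXCL1: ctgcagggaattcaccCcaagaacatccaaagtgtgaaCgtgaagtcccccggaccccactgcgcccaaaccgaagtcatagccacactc

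A sum over the 3 genes is not changed by a read given to the wrong one of them. Reads left out, or counted for several of the genes, would still affect it. The sum stood at 28.3 and 29.4 cpm in DU145-pc3.1, at 28.5 and 31.2 cpm in DU145-Esrrb, at 31.4 and 28.0 cpm in DU145-pc3.1+DY131 and at 21.0 and 24.6 cpm in DU145-Esrrb+DY131. Both libraries of the last group were below the other 6. With DY131 the sum changed by -0.38 ± 0.11 on the log2 scale in the Esrrb pool (edgeR adjusted p = 0.007) and by 0.04 ± 0.10 in the empty vector pool (0.786), and the difference of the responses was -0.42 ± 0.15 (edgeR adjusted p = 0.0401). The share of CXCL2 in the sum was 69.0% to 74.0% in the 4 libraries without DY131, 67.0% and 61.7% in DU145-pc3.1+DY131, and 59.0% and 56.0% in DU145-Esrrb+DY131.

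**Figure D3:**
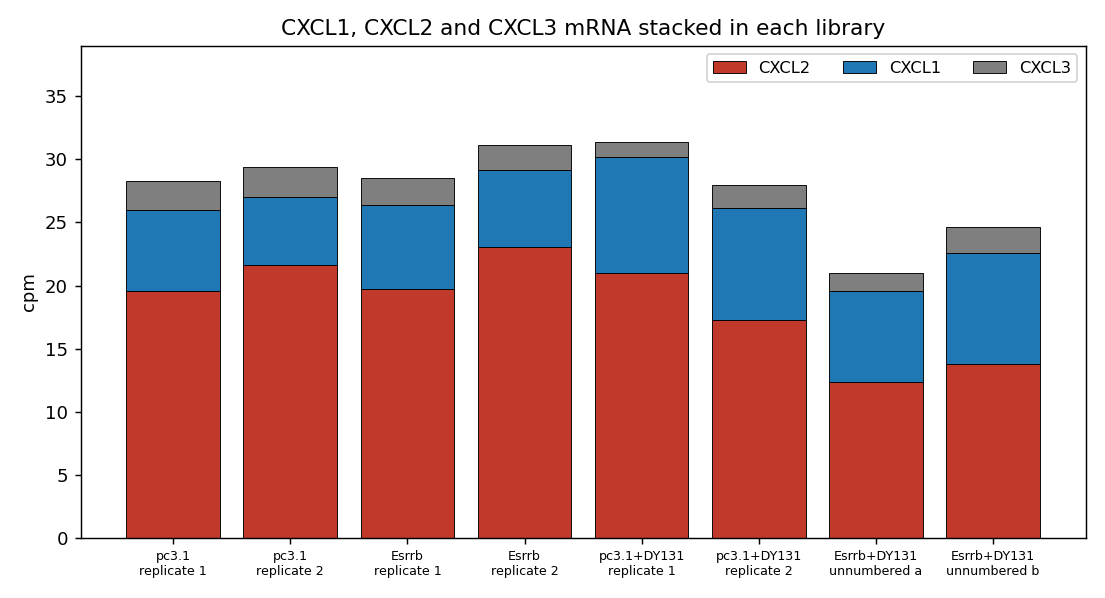
Levels of CXCL2, CXCL1 and CXCL3 in cpm (vertical axis), stacked for each of the 8 libraries. The 2 libraries of DU145-Esrrb+DY131 have the lowest sums, 21.0 and 24.6 cpm, and the smallest CXCL2 part.

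The remaining 4 members were at or near the limit of detection. CCL2 had 0 counts in all 8 libraries, of 81711140 counts in all, which allows up to 0.0452 cpm at the exact Poisson 95% limit. IL1A had 1 count, in replicate 1 of DU145-Esrrb, and IL1B had 1 count, in replicate 1 of DU145-pc3.1, each 0.0122 cpm over all libraries (exact Poisson 95% interval 0.000310 to 0.0682). CCL20, the ligand of CCR6, had 22 counts in 7 libraries, 0.269 cpm (0.169 to 0.408). These intervals cover counting error only. By library CCL20 had 0 and 4 counts in DU145-pc3.1, 2 and 5 in DU145-Esrrb, 4 and 3 in DU145-pc3.1+DY131 and 1 and 3 in DU145-Esrrb+DY131, and the groups overlapped. Tested without the filter, over 18701 genes, CCL20 had edgeR adjusted p values from 0.628 to 0.862, so no change was detectable at this depth.

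The receptors of the members were measured alongside. Of 13 receptors and antagonists 9 were tested. The gp130 chain IL6ST was at 220 to 436 cpm and the LIF receptor chain LIFR at 79.3 to 110 cpm, IL6R at 40.7 to 74.3 cpm and the oncostatin M receptor OSMR at 113 to 144 cpm over the libraries. For the ELR chemokines CXCR1 had 0 counts and CXCR2 at most 5. DY131 called none of the 9 in DU145-pc3.1, against 4.19% of all tested genes, and 3 in DU145-Esrrb, against 12.0%. IL1RL1, the receptor for interleukin-33, rose from 4.83 and 4.32 cpm to 10.3 and 9.15 cpm (log2 1.08 ± 0.19, edgeR adjusted p = 2.04e-04). CCR6 had 10 and 13 counts in DU145-Esrrb and 0 in both DU145-Esrrb+DY131 libraries, at least 5.59-fold lower against a floor of 3 counts over the group. It reached 1 cpm in 3 libraries, none of them in the latter group, so its call is given as a description. CCR2 had 0 counts in all 4 libraries of the empty vector pool, 12 and 12 in DU145-Esrrb and 2 and 2 in DU145-Esrrb+DY131. DY131 could therefore not call it in DU145-pc3.1. CCR2 reached 1 cpm in the 2 DU145-Esrrb libraries alone, and so entered the test only through the group where it was high. Its calls for Esrrb without DY131 and for DY131 in DU145-Esrrb follow from that choice and are given as a description. For Esrrb without DY131 it was at least 7.71-fold higher against the same floor. Its ligand CCL2 had no counts. The interleukin-1 co-receptor IL1RAP was called for Esrrb under DY131, at 48.5 and 46.2 cpm in the empty vector pool and 24.5 and 21.6 cpm in the Esrrb pool (log2 -1.04 ± 0.10, edgeR adjusted p = 8.80e-07).

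NF-kappaB subunits and their kinases gave no call for DY131 in either pool, with 13 of 13 tested. Of all tested genes 4.19% and 12.0% were called. The adjusted p alone was passed by 7 of the 13 in DU145-pc3.1 and by 8 in DU145-Esrrb, against 37.4% and 58.7% of all genes. The median log2 difference of the 13 was 0.30 in DU145-pc3.1 and 0.04 in DU145-Esrrb, against 0.00 over all genes in each. NFKB2 was called for Esrrb under DY131. It stood at 106 and 83.6 cpm in the empty vector pool and 52.1 and 43.0 cpm in the Esrrb pool. Its log2 difference was just beyond the fold change threshold. Its junction share was 31.8%, above the upper quartile of 23.5% over tested genes. TNIP1, IL1RAP and IL32, also called lower there, had 28.9%, 26.8% and 33.9%. IL11 and IL1RL1, called higher, had 8.8% and 8.7%. Lower calls with small shares included CEBPD (0%), CXCL5 (5.9%) and CXCL16 (12.1%), and IL24, called higher, had 23.1%. Whether the junction share bears on these calls was not tested. Of 11 tested target and feedback genes of NF-kappaB, 3 were called in each pool with DY131, where 4.19% of all tested genes were called in DU145-pc3.1 and 12.0% in DU145-Esrrb. BCL3, a nuclear IkappaB protein, fell by 1.25 in DU145-pc3.1 and fell by 1.07 in DU145-Esrrb on the log2 scale. TNFAIP2 fell by 1.08 in the first and fell by 1.04 in the second. BIRC3, an inhibitor of apoptosis, rose in DU145-pc3.1, from 92.0 and 101 cpm to 202 and 209 cpm (log2 1.09 ± 0.08, edgeR adjusted p = 1.14e-07). In DU145-Esrrb it went from 83.2 and 98.6 cpm to 146 and 136 cpm, a log2 difference of 0.63 that passed the adjusted p (edgeR, 6.55e-06) but not the fold change threshold. TNFAIP3, the deubiquitinase A20 that limits NF-kappaB, rose in DU145-Esrrb, from 64.5 and 72.2 cpm to 196 and 198 cpm (log2 1.53 ± 0.08, edgeR adjusted p = 8.41e-10). In DU145-pc3.1 it went from 53.8 and 57.7 cpm to 112 and 94.3 cpm, a log2 difference of 0.88 that again passed the adjusted p alone (edgeR, 1.79e-06). The responses of the 2 pools differed by 0.64 for TNFAIP3 (edgeR adjusted p = 6.90e-04) and by -0.46 for BIRC3 (0.00462), both under the fold change threshold. TNIP1, which binds A20, was called for Esrrb under DY131, with a log2 difference of -1.22 ± 0.07 (edgeR adjusted p = 1.53e-09). The called targets lay in both directions, 1 higher and 2 lower in each pool.

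Among AP-1, C/EBP, EGR1 and STAT3 factors 12 were tested, of which DY131 called 3 in DU145-pc3.1 and 4 in DU145-Esrrb, all lower. Of all tested genes 4.19% and 12.0% were called, and most of those calls were lower as well, 438 of 580 and 1253 of 1666. FOS, an AP-1 subunit, had 39.9 and 25.3 cpm in DU145-pc3.1 and 3.55 and 2.78 cpm with DY131, and 43.4 and 29.7 cpm in DU145-Esrrb and 3.91 and 3.50 cpm with DY131. EGR1 went from 259 and 254 cpm to 73.8 and 37.2 cpm in DU145-pc3.1 and from 242 and 227 cpm to 40.3 and 37.5 cpm in DU145-Esrrb. JUNB fell by 1.08 on the log2 scale in each pool. CEBPD, a C/EBP factor, was called in DU145-Esrrb, from 59.4 and 53.5 cpm to 12.3 and 15.0 cpm (log2 -2.04 ± 0.15, edgeR adjusted p = 3.42e-08). In DU145-pc3.1 it went from 52.5 and 50.5 cpm to 22.5 and 33.6 cpm (log2 -0.88), under the fold change threshold. The median over the 12 was -0.66 in DU145-pc3.1 and -0.31 in DU145-Esrrb. Whether these factors bear on IL6 or CXCL2 was not tested. The 12 factors of cytokine mRNA stability, ZFP36 and its relatives among them, gave no call in any comparison. Neither did the 4 tested interleukin-1 processing genes with DY131 in either pool. Over all tested genes the called share ran from 0.577% to 12.8%. Of the 12 stability factors 7 passed the adjusted p alone with DY131 in DU145-pc3.1 and 8 in DU145-Esrrb. Of the 4 processing genes 3 did so in each pool. Of all genes 37.4% and 58.7% passed it.

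Other chemokines and cytokines did not follow a common direction. Of 14 further chemokines 5 were tested. CXCL5, another ELR chemokine, rose with DY131 in DU145-pc3.1, from 5.82 and 6.07 cpm to 21.1 and 19.5 cpm (log2 1.77 ± 0.16, edgeR adjusted p = 1.28e-06), and had 11.2 and 11.1 cpm in DU145-Esrrb against 10.9 and 7.34 cpm with DY131. In DU145-Esrrb with DY131, CCL5, a CC chemokine, rose from 12 and 9 counts to 42 and 28, and CXCL16 fell from 12.6 and 12.2 cpm to 5.21 and 6.33 cpm. Of 13 further cytokines 9 were tested, and TNF had 0 counts in every library. CSF2, the granulocyte-macrophage factor, had 8 and 8 counts in DU145-pc3.1 and 26 and 15 with DY131, and 1 and 3 counts in DU145-Esrrb and 9 and 11 with DY131. It reached 1 cpm only in the 4 libraries with DY131 and entered the test through them, so its calls in both pools are given as a description. In DU145-Esrrb IL16 rose (log2 1.05), IL15 fell by 1.73 and IL32 fell by 1.99. IL15 went from 22 and 15 counts to 3 and 5. It reached 1 cpm in no DU145-Esrrb+DY131 library, so its call is given as a description. IL11, like IL6 and LIF a ligand of gp130, was called higher for Esrrb under DY131, at 29.1 and 22.9 cpm in the empty vector pool and 61.9 and 51.5 cpm in the Esrrb pool (log2 1.12 ± 0.14, edgeR adjusted p = 7.25e-06). IL24 was called higher there too, with a log2 difference of 1.12. In the same comparison IL32 was called lower, with a log2 difference of -2.88 (edgeR adjusted p = 5.91e-07). IL15 was called lower as well, at -1.35, which is again given as a description.

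**Figure D4:**
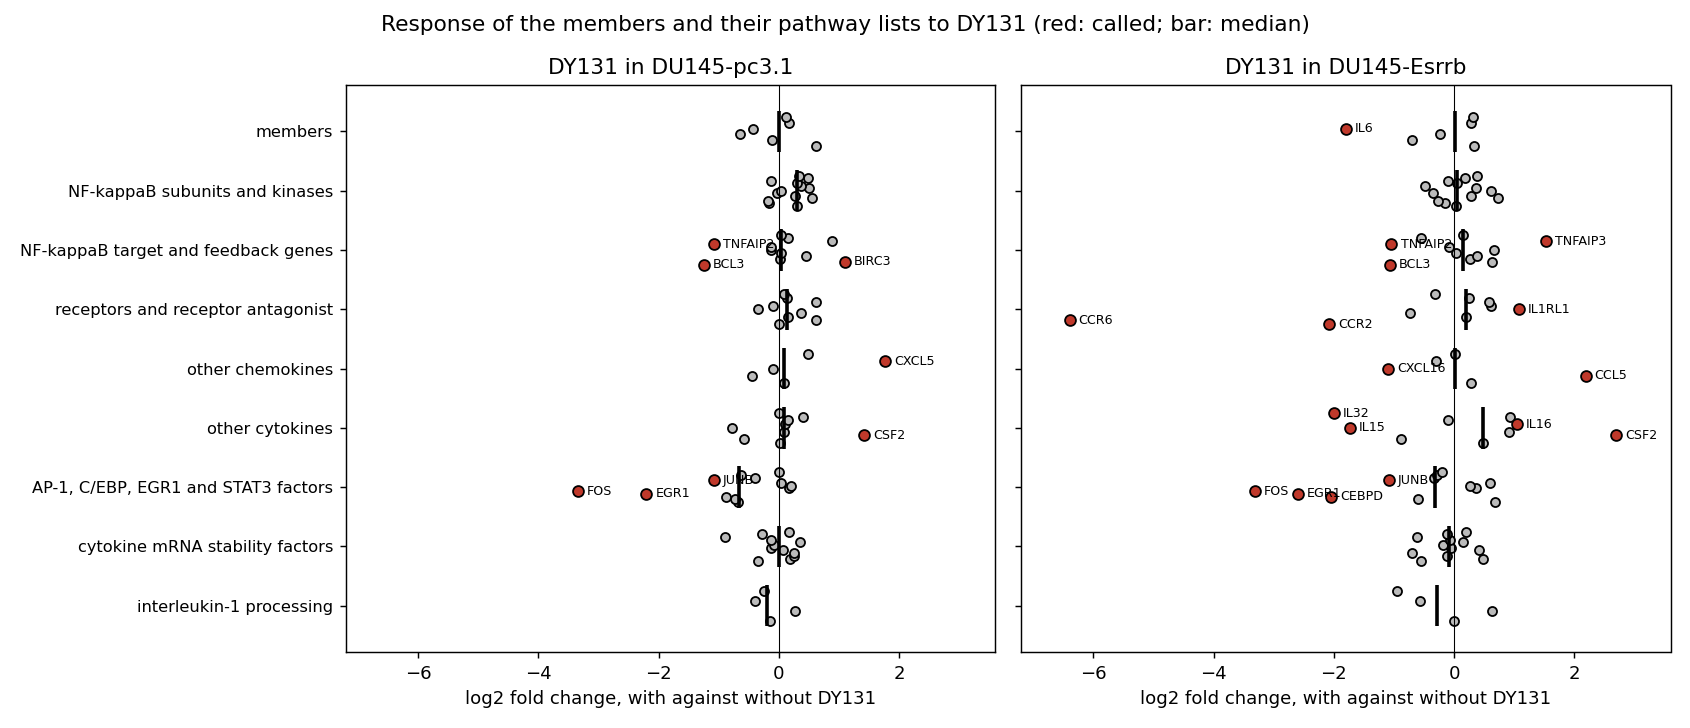
The log2 fold change for DY131 (horizontal axis) of the members and the lists of related genes (vertical axis) in DU145-pc3.1 (left) and DU145-Esrrb (right), with 1 point for each tested gene, called genes in red and the median as a bar. Among the members IL6 in DU145-Esrrb is the single red point, and the AP-1 and C/EBP list holds 3 and 4 red points, all to the left of 0. The point of CCR6 is a fitted value against 0 counts.

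The genes whose log2 cpm followed each member most closely over the 8 libraries, among tested genes with a mean of at least 10 cpm, were as follows. IL6 was nearest to HSCB (Pearson's r = 0.993), NAPA (0.993) and COMMD4 (0.990). CXCL2 was nearest to SLC1A1 (0.992), C20orf132 (0.987) and MAP4K2 (0.981). IL8 was nearest to SH3D21 (0.969), PDE4A (0.969) and RBM5 (0.965), and LIF to SRF (0.977), TEN1-CDK3 (0.972) and TUBGCP6 (0.962). CXCL1 was nearest to BPTF (0.972), TANC2 (0.970) and MLL (0.968), and CXCL3 to FGF12 (0.947), UQCR11 (0.944) and ZNF410 (0.943). Between members r was 0.955 for IL8 and LIF and 0.855 for IL6 and CXCL2. The points are the same 8 libraries in 4 groups, the neighbours were picked for their high r, and no test was made.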

How the data were processed

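Poly(A) RNA libraries of 8 DU145 samples were sequenced in a single lane (TruSeq Stranded mRNA, single reads of 50 bases). After trimming by the FASTX-Toolkit and alignment to hg18 by TopHat2, the authors deposited raw counts per gene from their MULTICOM-MAP program; its treatment of strand and of reads with several matches is not stated. Columns were matched to samples by the sample descriptions, and the 2 columns of DU145-Esrrb+DY131 share a heading. Of 23391 genes, 13856 reached 1 cpm in 2 or more libraries and were tested in 1 model of the 4 groups with edgeR 4.0.16 (TMM, quasi-likelihood F test, limma 3.58.1, R 4.3.3), and p was adjusted by Benjamini-Hochberg over all tested genes. Calls needed an adjusted p below 0.05 and a difference of 1 or more on the log2 scale. The 2 libraries of a group are biological replicates per the study's methods. Totals of 7858743 to 11551690 counts put 3 counts at 0.260 to 0.382 cpm.

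The members and all lists were chosen with earlier results of these data known. Named genes were drawn from the 10 members and from up to 4 called genes of each list and comparison having the largest log2 fold change. The 3 nearest patterns of each tested member were also named. Not every call within this rule is printed, so a gene left unnamed in a comparison may have been called. Alternatives were edgeR's exact test, DESeq2 1.42.0, other scalings and filters, corrections for transcript length, GC content and junction share (the positions of a transcript near an exon junction), the 3 CXCL genes summed, the 4 compared libraries alone, a replicate block, and each library left out. Transcripts and positions came from GENCODE 29 and promoters from RefSeq (GRCh38.p14), since no hg18 reference was used. By RefSeq identifier 22018 genes were matched, by current symbol 721 and by an older symbol 135, and 517 were not. The fit and the junction correction were tested on simulated data, and the reported fit carries no such correction. Tables were drawn up with Python 3.11.15 and pandas 2.3.3.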

Additional observations from a re-analysis of the deposited data

Results flagged for a closer look

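The response to DY131 differed between the Esrrb pool and the empty vector pool, by the interaction term of edgeR's quasi-likelihood test with an adjusted p below 0.05 and a difference of 1 or more on the log2 scale, for IL6 and for 10 genes of the lists. Of all tested genes 6.28% passed the same call. The IL6 response was lower in the Esrrb pool by 1.37 on the log2 scale (a difference of -1.37, adjusted p = 0.00201), with -0.44 in DU145-pc3.1 and -1.80 in DU145-Esrrb.

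Among receptors the difference was 1.43 for IL1RL1 and -1.09 for IL1RAP. For CCR6 the fitted difference of -7.02 rests on 0 counts in both DU145-Esrrb+DY131 libraries and is no measure of size. Among chemokines the difference was 2.63 for CCL5, with 6 and 19 counts in the 2 DU145-pc3.1+DY131 libraries. It was -2.07 for CXCL5, with log2 responses of 1.77 in DU145-pc3.1 and -0.30 in DU145-Esrrb, and -1.0 for CXCL16. For the cytokine IL32 it was -1.99, with 0.00 in DU145-pc3.1 and -1.99 in DU145-Esrrb. For the transcription factors it was 1.36 for ATF3 and -1.16 for CEBPD. For LYZ, a leukocyte marker with 2 to 16 counts in a library, it was -2.41. LYZ reached 1 cpm in no DU145-Esrrb+DY131 library, so its call is given as a description.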

How the results depend on the processing

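IL6 was called in the same direction for DY131 in the Esrrb pool, Esrrb under DY131, both together and the interaction under every alternative run, and in no comparison did an alternative that kept the fold change threshold call another of the 6 members. With no fold change threshold 1 member was called for DY131 in the empty vector pool, 4 for DY131 in the Esrrb pool, 2 for Esrrb under DY131, 2 for both together and 2 for the interaction. Of all tested genes 37.4%, 58.7%, 50.4%, 59.3% and 33.7% were called at this setting, in the same order. The signs that turned were those of small differences that were not called. With the length and GC correction IL8 and LIF for Esrrb under DY131 were 0.064 and 0.18, and with the junction share added, a setting chosen after seeing the data, LIF was 0.030. With the junction correction IL8 and LIF were -0.0085 and -0.019 for both together, and IL8 was -0.024 in the interaction. The corrections of LIF rest on the listed short form of the gene.

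Leaving out 1 library at a time gave ranges that cross 0 for CXCL1 (-0.031 to 0.24) and CXCL2 (-0.059 to 0.16) with Esrrb alone, for IL8 (-0.051 to 0.36), LIF (-0.17 to 0.36) and CXCL2 (-0.25 to 0.027) with DY131 in the empty vector pool, for IL8 (-0.23 to 0.18), CXCL3 (-0.066 to 0.53) and LIF (-0.25 to 0.28) for Esrrb under DY131, and for IL8 (-0.0745 to 0.33) and LIF (-0.050 to 0.47) in the interaction. The cause was not tested.

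The count of genes called over the whole table depended on the filter and the threshold. Where each library had to hold 10 counts it was 43 for Esrrb alone (80 in the reported fit), 315 for DY131 in the empty vector pool (580), 1090 for DY131 in the Esrrb pool (1666), 721 for Esrrb under DY131 (1137) and 1178 for both together (1778). With no fold change threshold these counts were 579, 5185, 8128, 6983 and 8214, and 4674 for the interaction (870). For Esrrb alone DESeq2 called 48, and leaving out 1 library gave 46 to 126.

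Replicate numbers are known for 6 libraries. Same-numbered libraries deviated together with correlations of 0.09, 0.02 and -0.07, so the numbers were not taken to pair the samples. A fit of those 6 with the replicate block called 0 members for Esrrb alone and 0 for DY131 in the empty vector pool, where IL6 was at -0.43 (edgeR adjusted p = 0.0456 with the block and 0.0438 without it). The exact test and the fits of 4 libraries give no interaction. With 2 libraries in a group, the lone sample left after removing 1 was taken to vary like the other groups. At 11 to 27 counts a library, CXCL3 had a standard error of 0.30 to 0.37 on the log2 scale for single contrasts, so differences of that size were not detectable.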
